A study of Rattus norvegicus with 12 samples.

Results

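The genes examined here encode 8 carbonyl and aldo-keto reductases: Cbr1, Cbr3, Cbr4, Akr1a1, Akr1b1, Akr1b8, Akr7a2 and Akr7a3. They were picked by gene symbol in the annotation of a rat expression array, and each was read by 1 probe set, so that 8 of the 15866 probe sets tested, or 8 of the 10411 genes with a symbol of their own, were involved. The group was selected on earlier results of the same arrays, namely the level of Cbr1 in untreated diabetic rats against healthy rats and against treated diabetic rats. For the members, those contrasts are therefore described without a test. Every value is a log2 expression value on a robust multi-array average scale, on which a difference of 1 is a doubling of signal.

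Carbonyl reductases and aldo-keto reductases are cytosolic or mitochondrial enzymes that use NADPH to turn aldehydes and ketones into alcohols. Carbonyl reductases belong to the short-chain dehydrogenase/reductase superfamily and act on quinones, prostaglandins and reactive lipid carbonyls. Aldo-keto reductases have a barrel fold and act on sugars, lipid aldehydes and aflatoxin dialdehyde. Aldose reductase opens the polyol pathway, in which glucose is turned into sorbitol, and is best known for its part in diabetic complications.

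The arrays held total RNA of whole pancreas from adult male Wistar rats in 4 groups. HU rats were healthy and untreated, HT rats healthy and given tungstate, DU rats diabetic and untreated, and DT rats diabetic and given tungstate. Diabetes was induced with streptozotocin (STZ), a toxin taken up by beta cells, in the DU and DT rats. Treated rats drank sodium tungstate at 0.7 g/L for 1 week and at 2 g/L for the following 4 to 5 weeks, and untreated rats drank water alone and were kept for 5 to 6 weeks. There were 3 arrays to a group, each made from the mixed RNA of 3 rats, so p-values measure the spread between pools. In whole pancreas, fewer cells of a type and less RNA per cell cannot be told apart.

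The array records named 6 scan days and 3 chip lots. No HU array shared a scan day with a DU or DT array, and HU and DU arrays shared chip lot 1 only. All 10 acinar markers were measured, and the log2 of their summed signal, which the brightest genes set, ranged from 17.34 to 17.37 in HU, from 17.22 to 17.28 in DU and from 17.32 to 17.39 in DT. One acinar marker, Amy2a3, a pancreatic amylase from a family of near-identical genes, named here after its values were seen, read 8.59, 6.45 and 8.78 in DU against 12.70 to 13.20 on the 9 other arrays. Its log2 fold change was -5.18 ± 0.42 in DU vs. HU (adjusted p = 1.04e-05, limma) and 5.01 ± 0.42 in DT vs. DU (adjusted p = 2.02e-05), so that it was low on the arrays on which Cbr1 was high, and its part in the level of Cbr1 was not tested. The 9 other acinar markers did not pass in either contrast. Of 8 beta cell markers, 6 were measured and 4 of them fell from HU to DU (adjusted p under 0.05, limma). The log2 of the summed signal of the 6 lay at 14.60 to 14.73 in HU and 14.58 to 14.79 in HT, but at 11.21 to 11.63 in DU and 11.77 to 13.08 in DT. The summed beta cell level was thus low in both DU and DT. The same 4 markers (Ins1, Ins2, Iapp and Slc2a2) fell in DT vs. HU as well, while Pdx1 and Nkx6-1 passed in neither contrast. In DT vs. DU, Ins2 rose (log2 fold change 1.45 ± 0.31, adjusted p = 0.0387, limma), and all 6 measured markers had a positive log2 fold change. Markers of duct, other endocrine, leukocyte, stellate, endothelial, fat and liver cells were also read. Among these, Sst (other endocrine) alone passed between HU and DU, with DU higher by 1.32 ± 0.28 (adjusted p = 0.0217, limma). It lay at 9.84 to 10.48 in DU and 8.68 to 10.10 in DT. Spp1 (duct) alone passed between DU and DT, at -0.53 ± 0.11 for DT minus DU (adjusted p = 0.0319, limma). Sst did not pass in DT vs. DU, nor Spp1 in DU vs. HU. In DT vs. HU, the stellate markers Col3a1 (-1.43 ± 0.26, adjusted p = 0.0188, limma) and Col1a2 (-0.96 ± 0.20, adjusted p = 0.0385) were lower. The 6 other stellate markers did not pass there. In DT vs. HT, Car2 (duct) was lower (-0.34 ± 0.07, adjusted p = 0.0415, limma), and the 5 other duct markers did not pass. Cbr1 was high in DU and lay near the healthy level in DT, and the part of any cell type in its level was not tested.

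Cbr1 and Cbr3 lie close together on chromosome 11 of GRCr8 and encode closely related enzymes. The DNA just before each start site is shown as a description, and whether it bears on their readings was not tested. Both sequences are the 250 bases upstream of the RefSeq start on the plus strand, at chr11:46346155-46346404 for Cbr1 and at chr11:46478045-46478294 for Cbr3. Capitals mark GCGTG, the core of the xenobiotic response element, on either strand.
Cbr1: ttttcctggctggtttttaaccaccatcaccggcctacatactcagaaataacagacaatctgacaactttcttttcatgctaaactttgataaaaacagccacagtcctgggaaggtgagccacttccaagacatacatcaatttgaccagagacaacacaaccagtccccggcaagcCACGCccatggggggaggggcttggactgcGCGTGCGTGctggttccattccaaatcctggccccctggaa
Cbr3: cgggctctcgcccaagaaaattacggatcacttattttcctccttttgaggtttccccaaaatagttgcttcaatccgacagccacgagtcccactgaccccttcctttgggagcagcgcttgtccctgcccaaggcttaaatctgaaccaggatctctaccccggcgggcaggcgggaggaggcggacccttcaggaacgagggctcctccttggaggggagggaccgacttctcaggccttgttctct

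The Cbr1 window had 3 matches to GCGTG, starting at -71, -41 and -37 from the start site, the last pair overlapping by 1 base. The Cbr3 window had none. This core stood in 25.9% of 33469 upstream windows of the same length, and in 3 of the 7 reductases with a window in the table, the others being Akr7a2 (at -27) and Akr7a3 (at -57). Akr1b1 had no entry. No reductase window held TGACNNNGC, an antioxidant response element (10.1% of all windows), the DR1 element, AGGTCA repeated after 1 free base (0.0508%), or CACGTG, a palindromic E-box (5.59%), each searched on both strands. The Cbr1 window was 50.4% G and C with 6 CG pairs and the Cbr3 window 57.2% with 12, against medians of 51.2% and 5 over all windows. Between the pair lie 3 protein-coding genes named Cbr1l1, Cbr1l2 and Cbr1l3. Whether the Cbr1 probe set also reads these Cbr1-like genes was not tested, as probe sequences were not used here.

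Cbr1, the broadest of the carbonyl reductases, had much more signal in untreated diabetic pancreas than in any other group. Its values were 7.95, 7.88 and 7.94 in HU, and 7.94, 7.99 and 7.89 in HT. They were 9.90, 10.34 and 10.61 in DU, and 8.18, 8.06 and 8.16 in DT. Every DU array lay above every array of the other groups, and every DT array lay just above every healthy array. The healthy means were 7.93 ± 0.04 (SD, n = 3) for HU and 7.94 ± 0.05 for HT, and the diabetic means 10.28 ± 0.36 for DU and 8.13 ± 0.07 for DT. DU exceeded HU by 2.36 ± 0.13 (standard error), a 5.13-fold difference, and DT was below DU by a 4.44-fold difference (log2 fold change -2.15 ± 0.13). The DU arrays were also the most spread, with DU1 lowest and DU3 highest.

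The order of the Cbr1 means was HU, HT, DT, DU. HU and HT differed by 0.01 (95% confidence interval -0.27 to 0.30), and HT and DT by 0.19 (-0.09 to 0.48). Both intervals held values of either sign. The error behind them is shared by all 4 groups, and the DU arrays (SD 0.36) were far more spread than those of HU (0.04), HT (0.05) and DT (0.07). DT minus HU was 0.21 ± 0.13. The effect of tungstate in diabetic rats minus that in healthy rats was -2.16 ± 0.19. Inside single batches the differences had the same direction. In chip lot 1, DU1 and DU2 exceeded HU3 by 2.18, and DT1 and DT2 minus DU1 and DU2 was -2.0. In chip lot 3, DT3 minus DU3 was -2.44, and on scan day 1, DT1 and DT2 minus DU1 was -1.78. With scan day as a block, DT minus DU was this same -1.78, since DU1 is the only DU array that shares a day with DT arrays. DU minus HU was then 2.08, a value that rests on other groups to bridge the scan days. With 1 array left out at a time, DU minus HU ranged from 2.20 to 2.55 and DT minus DU from -2.34 to -1.99.

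**Figure D1:**
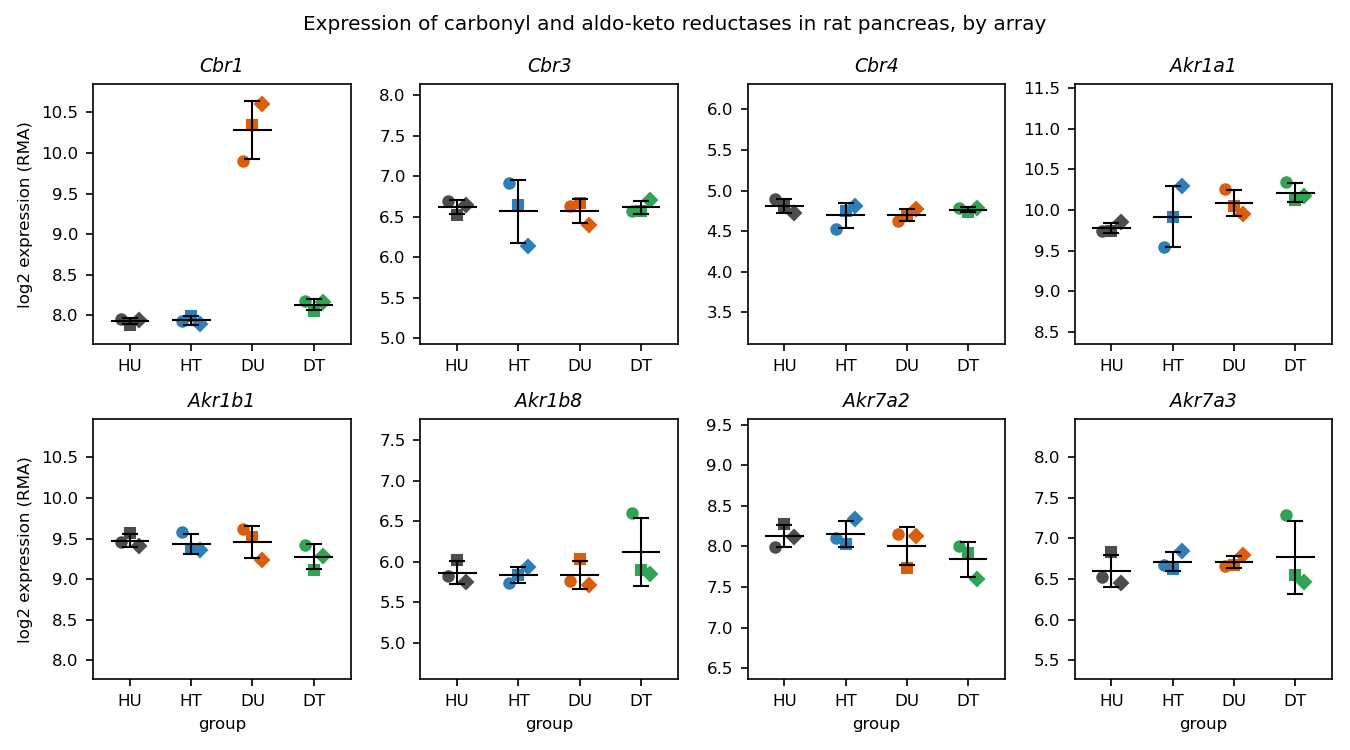
Log2 expression (y axis) of the 8 reductases by group (x axis), 1 panel a gene, each panel spanning the same range of log2 units. Points are single arrays (circle, replicate 1; square, 2; diamond, 3), bars are the group mean and its SD over 3 arrays; the 3 DU arrays of Cbr1 stand between 9.90 and 10.61, and in the other panels the groups lie close together.

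The other carbonyl reductases did not share this pattern. Cbr3, a near relative of Cbr1 with a narrower range of substrates, read 6.69, 6.53 and 6.65 in HU and 6.64, 6.66 and 6.40 in DU. It read 6.91, 6.64 and 6.14 in HT and 6.57, 6.57 and 6.71 in DT. HU, DU and DT overlapped, and HT held both the highest and the lowest Cbr3 value of the 12 arrays. Its mean stayed between 6.57 and 6.62 in all groups, with DU minus HU at -0.06 ± 0.15 and DT minus DU at 0.05 ± 0.15. With scan day as a block the first of these became 0.76, a value that rests on other groups to bridge the scan days.

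Cbr4, a mitochondrial reductase that takes part in fatty acid synthesis there, was dim, and it was among the 25% of probe sets removed when dim ones were left out. Its 12 values ran from 4.52 (HT1) to 4.89 (HU1). Group means were 4.81 ± 0.08 (HU), 4.69 ± 0.15 (HT), 4.70 ± 0.07 (DU) and 4.77 ± 0.03 (DT). All groups overlapped one another.

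Akr1a1, aldehyde reductase, reduces glucuronate on the route to ascorbate in rodents. It read 9.74, 9.74 and 9.85 in HU, and 9.55, 9.92 and 10.29 in HT. It read 10.26, 10.05 and 9.95 in DU, and 10.35, 10.12 and 10.17 in DT. The DU and DT arrays lay above all HU arrays, while the HT arrays spread across the whole range. DU minus HU was 0.31 ± 0.15 and DT minus HU 0.44 ± 0.15, whereas DT minus DU was 0.13 ± 0.15. The differences from HU rested on how batches were treated: DU minus HU was 0.09 with chip lot as a block and -0.22 with scan day as a block, and DT minus HU 0.21 and -0.24. Within chip lot 1, DU1 and DU2 exceeded HU3 by 0.31.

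Akr1b1, aldose reductase, read 9.46, 9.56 and 9.40 in HU and 9.62, 9.52 and 9.24 in DU. It read 9.58, 9.37 and 9.36 in HT and 9.42, 9.12 and 9.29 in DT. All groups overlapped, with DT2 lowest. DU minus HU was -0.02 ± 0.11, with a 95% confidence interval from -0.26 to 0.23, and DT minus DU was -0.18 ± 0.11. DU minus HU turned to 0.35 with scan day as a block. Akr1b8, an aldose reductase-like enzyme that is its direct neighbor on chromosome 4, read 5.83, 6.02 and 5.75 in HU and 5.73, 5.83 and 5.93 in HT. It read 5.77, 6.03 and 5.71 in DU and 6.60, 5.90 and 5.84 in DT. DT1 was apart from the other 11 arrays, which lay between 5.71 and 6.03. DT minus DU was 0.28 ± 0.17 with DT1 and 0.04 without it, and with scan day as a block DU minus HU was -0.53.

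Akr7a2 and Akr7a3 lie on chromosome 5 with no protein-coding gene between them. Akr7a2, which reduces succinic semialdehyde and aflatoxin dialdehyde, read 8.0, 8.28 and 8.11 in HU and 8.10, 8.03 and 8.33 in HT. It read 8.15, 7.73 and 8.13 in DU and 8.01, 7.92 and 7.59 in DT. The DT arrays were all below the HT arrays and overlapped the others. DU minus HU was -0.12 ± 0.14 and DT minus DU -0.16 ± 0.14. Akr7a3, aflatoxin aldehyde reductase, read 7.29, 6.55 and 6.47 in DT, and its other 9 arrays lay between 6.45 and 6.85. DU minus HU was 0.11 ± 0.17 and DT minus DU 0.06 ± 0.17. The block for scan day moved DU minus HU to -0.60 for Akr7a2 and turned it to -0.44 for Akr7a3. DT1 was again the highest array, and in chip lot 1 DT minus DU was 0.25 while in chip lot 3 it was -0.32.

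**Figure D2:**
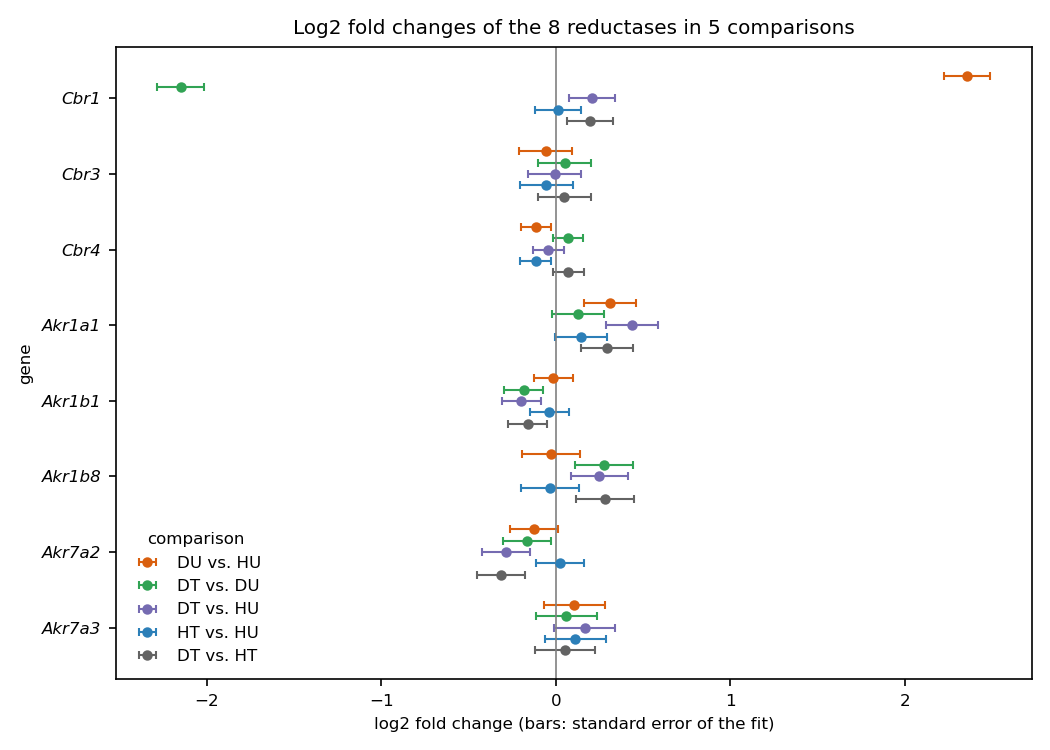
Log2 fold change (x axis) of each reductase (y axis) in 5 comparisons, marked by color. Points are estimates of the fit over 12 arrays and bars their standard error; Cbr1 is at 2.36 for DU vs. HU and at -2.15 for DT vs. DU, and every other point lies between -0.31 and 0.44.

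Cbr1 was the 1 member of 8 with an adjusted p under 0.05 (limma, Benjamini-Hochberg over all probe sets) in DU vs. HU, where 3.2% of all probe sets passed, 1.47% higher and 1.73% lower. It was likewise the 1 member of 8 in DT vs. DU, where 1.12% passed, 0.655% higher and 0.46% lower. None passed in DT vs. HU (1.32%). These contrasts, or their sum, chose the group, and nothing is read from the counts. In DU vs. HU, 2 of 8 members (Cbr1 and Akr1a1) had all DU arrays above all HU arrays, as did 12.5% of all probe sets. In DT vs. DU, Cbr1 alone had all DT arrays below all DU arrays (6.28%), and in DT vs. HU Cbr1 and Akr1a1 had all DT arrays above all HU arrays (9.62%). DU vs. HU and DT vs. DU share the DU arrays. Without Cbr1, the log2 fold changes of the 7 others ran from -0.12 to 0.31 in the former and from -0.18 to 0.28 in the latter.

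The effect of tungstate in healthy rats was not used in choosing the genes, apart from the HU arrays. In HT vs. HU, limma called 0 of 8 members at an adjusted p under 0.05, 0 at an unadjusted p under 0.05 and 0 by a B-statistic above 0. Over all probe sets the shares were 0.0063%, 5.41% and 0%. All 8 members had overlapping HT and HU arrays, against 11.6% of all probe sets without overlap. Cbr1 had a log2 fold change of 0.01 ± 0.13 (adjusted p = 0.989, limma). The log2 fold changes of the 7 others ran from -0.12 (Cbr4, adjusted p = 0.878, limma) to 0.14 (Akr1a1, adjusted p = 0.902). The 95% confidence interval of Akr1b1 was -0.28 to 0.20, and the upper bounds of Akr1a1 and Akr7a3 were 0.46 and 0.49.

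Diabetic and healthy rats that both drank tungstate were compared in DT vs. HT, where the DT arrays were among those behind the choice of genes. Limma called 0 of 8 members at an adjusted p under 0.05 (0.933% of all probe sets), 1 at an unadjusted p under 0.05 (12.7%) and 0 by a B-statistic above 0 (0.971%). That 1 was Akr7a2, whose DT arrays were all below its HT arrays (8.48% of all probe sets). Its log2 fold change was -0.31 ± 0.14 (adjusted p = 0.361, limma), with -0.10 without the arrays of chip lot 3 and -0.74 with scan day as a block, where DT3 and HT3 alone share a day. Cbr1 had all DT arrays above all HT arrays (7.38% of all probe sets), with a log2 fold change of 0.19 ± 0.13 (adjusted p = 0.58, limma). That error also takes in the wider spread of the DU arrays. Akr1a1 had 0.29 ± 0.15 (adjusted p = 0.444, limma) and Akr1b8 0.28 ± 0.17 (adjusted p = 0.514), the latter with DT1 above the rest.

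Correlations between the reductases across the 12 arrays are given as a description over arrays that share groups and batches. Pearson's r of Cbr1 with the 7 others lay between -0.23 and 0.22, and between -0.53 and 0.37 after group means were removed. The highest r of any pair was 0.81, between Akr1b8 and Akr7a3, and it was 0.88 after group means were removed. Both genes had their highest value in DT1. The neighbors Akr7a2 and Akr7a3 had 0.34 (0.61 after group means were removed), Akr1b1 and Akr1b8 0.06 (0.47), and Cbr1 and Cbr3 -0.10 (-0.13). Cbr3 had negative values with Cbr4 (-0.52), Akr1a1 (-0.51) and Akr7a2 (-0.50).

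The 5 genes whose profile over the 12 arrays was most like that of Cbr1 were Ppcdc (r = 0.987), Angptl4 (0.98), Impa2 (0.979), Txnip (0.975) and Decr1 (0.973). Ppcdc encodes a decarboxylase of coenzyme A synthesis, Angptl4 an inhibitor of lipoprotein lipase and Impa2 an inositol monophosphatase. Txnip binds thioredoxin and is induced by glucose, and Decr1 is a dienoyl-CoA reductase of mitochondrial fatty acid oxidation. As these genes were picked for their likeness to Cbr1 on these arrays, high DU values follow from the pick, and the differences are a description only. DU minus HU was 2.55 in Ppcdc, 1.64 in Angptl4, 1.77 in Impa2, 2.57 in Txnip and 2.92 in Decr1. DT minus DU was -2.66, -1.72, -1.69, -2.23 and -2.34 in the same order. Like Cbr1, Ppcdc, Angptl4 and Impa2 had their highest value in DU3, while Txnip and Decr1 had it in DU2. Decr1 was above all HU arrays in DT1, DT2 and DT3 and Txnip in DT1 and DT3, whereas Ppcdc had DT1 to DT3 at 6.88, 6.59 and 6.68 against 6.83, 6.96 and 6.69 in HU.

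**Figure D3:**
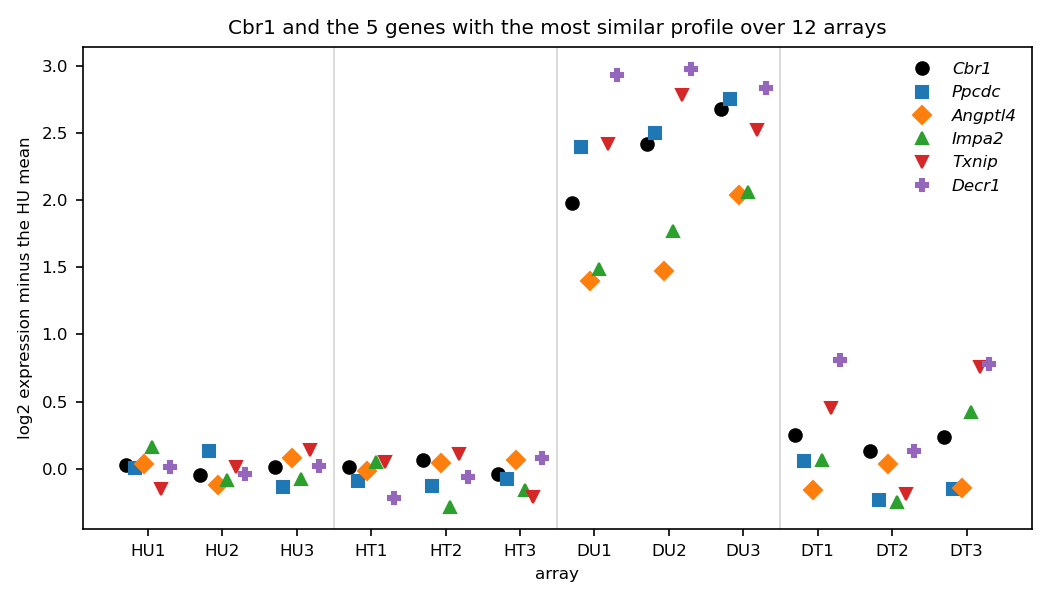
Log2 expression minus the mean of the HU arrays (y axis) on each of the 12 arrays (x axis) for Cbr1 and the 5 genes with the highest Pearson correlation to it. Each symbol is 1 gene on 1 array; all 6 genes stand more than 1 unit above the HU mean on each DU array, and within 1 unit of it on every other array.

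Most other enzymes that act on carbonyl groups did not pass the test. Of 63 further reductases and dehydrogenases listed, 44 were measured. In DU vs. HU, 1 of these 44 rose, 3 fell and 40 did not pass, where 1.47% of all probe sets rose and 1.73% fell. The median log2 fold change was 0.02 against -0.02 over all probe sets. Hsd17b10, a mitochondrial dehydrogenase of branched-chain amino acid and fatty acid breakdown, rose 1.66-fold (log2 fold change 0.73 ± 0.13, adjusted p = 0.00573, limma). Pecr, a peroxisomal enoyl-CoA reductase, fell 1.47-fold (adjusted p = 0.00589, limma), Adh4, an alcohol dehydrogenase, 1.36-fold (adjusted p = 0.0163) and Dcxr, which reduces dicarbonyls and xylulose, 1.36-fold (adjusted p = 0.0459). In DT vs. DU, 1 rose and 0 fell, where 0.655% of all probe sets rose and 0.46% fell. The median was 0.02 against 0.00, and the 1 was Dcxr (1.49-fold, log2 fold change 0.58 ± 0.11, adjusted p = 0.0193, limma). Dcxr read 8.71, 8.96 and 8.97 in HU, 8.35, 8.50 and 8.46 in DU, and 9.23, 9.0 and 8.82 in DT, with all DU arrays below the rest. In HT vs. HU, limma called 0, with 4 at an unadjusted p under 0.05 and 0 by the B-statistic, and the median was 0.04.

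With scan day as a block, none of these DU vs. HU calls was kept, in a fit where DU minus HU rests on other groups to bridge the scan days. The log2 fold change was then 0.76 for Hsd17b10 (adjusted p = 0.584, limma), -0.31 for Pecr (adjusted p = 0.791), -0.43 for Adh4 (adjusted p = 0.66) and -1.09 for Dcxr (adjusted p = 0.245), so that Pecr shrank while Hsd17b10 and Adh4 kept their size and Dcxr grew. With chip lot as a block the adjusted p was 0.0581, 0.0565, 0.13 and 0.0659, and the 1 call was Adhfe1, a hydroxyacid-oxoacid transhydrogenase (adjusted p = 0.0428, limma). Within chip lot 1, DU1 and DU2 minus HU3 was 0.77 for Hsd17b10, -0.40 for Pecr, -0.48 for Adh4 and -0.54 for Dcxr. Adh4 did not pass without HU1, DU1 or DU2 (adjusted p from 0.0782 to 0.0813, limma). Dcxr did not pass in DU vs. HU without HU2, HU3, HT1, HT2, DU1, DU2, DU3 or DT2 (adjusted p from 0.0541 to 0.161, limma), with median centring (0.0616) or with trend and robust settings (0.0518). In DT vs. DU it did not pass without DU1, DU2, DU3, DT1 or DT2 (adjusted p from 0.0514 to 0.109, limma) or with the 6 arrays alone (0.0897).

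Aldehyde dehydrogenases, which oxidize the aldehydes that these reductases reduce, were measured for 13 of 19 listed. In DU vs. HU, 0 of these 13 rose and 2 fell, against 1.47% and 1.73% of all probe sets, with a median log2 fold change of -0.14. Aldh1a1, a retinaldehyde dehydrogenase, read 10.22, 9.88 and 10.16 in HU, 8.89, 8.74 and 8.78 in DU, and 9.22, 9.03 and 9.41 in DT. Its DU and DT arrays all lay below its HU arrays. From HU to DU it fell 2.43-fold (log2 difference -1.28 ± 0.13, adjusted p = 8.42e-05, limma). Aldh2, the mitochondrial acetaldehyde dehydrogenase, fell 1.54-fold (-0.62 ± 0.11, adjusted p = 0.0071, limma). With scan day as a block, the log2 fold change of Aldh1a1 shrank to -0.61 (adjusted p = 0.609, limma) and that of Aldh2 to -0.35 (adjusted p = 0.779), while within chip lot 1 DU1 and DU2 minus HU3 was -1.34 and -0.66. In DT vs. DU, limma called 0, with 4 at an unadjusted p under 0.05 and 0 by the B-statistic, and the median was 0.16. Aldh2 passed there without DT2 (adjusted p = 0.0408, limma, against 0.079 with all arrays). In HT vs. HU, limma called 0, with 1 at an unadjusted p under 0.05 and 0 by the B-statistic, median -0.09.

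Genes of the polyol pathway and of dicarbonyl removal, which surround aldose reductase, were measured for 10 of 14 listed. Limma called 0 in each of DU vs. HU, DT vs. DU and HT vs. HU, with 1, 0 and 0 at an unadjusted p under 0.05 and 0 by the B-statistic, and medians of -0.08, -0.01 and -0.07. Sord, sorbitol dehydrogenase, which follows aldose reductase, stood at -0.18 ± 0.10 on the log2 scale in DU against HU (adjusted p = 0.338, limma) and at -0.06 in DT against DU (adjusted p = 0.929). Its dimmer probe set had -0.37 (adjusted p = 0.0902, limma) and 0.16 (adjusted p = 0.725).

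Several reductases are known targets of Nrf2, the factor that drives the antioxidant response, and 29 of 40 other Nrf2 target and pathway genes were measured. In DU vs. HU, 1 of these 29 rose and 2 fell, against 1.47% and 1.73% of all probe sets, median 0.08. Ephx1, microsomal epoxide hydrolase, rose 1.63-fold (adjusted p = 0.0145, limma), while Gstp1, a glutathione transferase, fell 1.96-fold (log2 fold change -0.97 ± 0.12, adjusted p = 0.000622) and Pgd, of the pentose phosphate pathway, fell 1.36-fold (adjusted p = 0.0399). In DT vs. DU, 2 of these 29 rose and 0 fell, against 0.655% and 0.46% of all probe sets, with a median of -0.0044. Gstp1 rose 1.89-fold (0.92 ± 0.12, adjusted p = 0.0012, limma) and Trib3, a pseudokinase best known from the integrated stress response, rose 1.62-fold (adjusted p = 0.0218). The dimmer probe sets of Trib3 had adjusted p of 0.076 and 0.279 (limma) in DT vs. DU. Unlike Gstp1, Trib3 was not lower in DU than in HU. Its brightest probe set had 0.49 ± 0.13 in DU vs. HU (adjusted p = 0.067, limma) and passed under 5 of 21 alternatives. The dimmer ones had 0.24 and -0.09 there, and neither passed. In DT vs. HU the brightest had 1.18 ± 0.13 (adjusted p = 0.00113, limma). In HT vs. HU, limma called 0, with 2 at an unadjusted p under 0.05 and 0 by the B-statistic, median 0.00.

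Gstp1 read 10.37, 10.23 and 10.53 in HU, 9.58, 9.37 and 9.27 in DU, and 10.56, 10.08 and 10.34 in DT. Its DU arrays lay below all others, the opposite placing to Cbr1. Nqo1, the usual marker of the Nrf2 response and itself a quinone reductase, differed by -0.06 ± 0.14 between DU and HU (log2, adjusted p = 0.857, limma) and by -0.14 between DT and DU (adjusted p = 0.836). Nfe2l2, which encodes Nrf2, read 6.84, 6.70 and 6.99 in HU, 7.53, 7.43 and 7.13 in DU, and 7.04, 6.67 and 6.81 in DT. Its DU arrays were all above the HU and DT arrays, but neither difference passed: DU minus HU was 0.52 ± 0.15 (log2, adjusted p = 0.0848, limma) and DT minus DU -0.52 ± 0.15 (adjusted p = 0.182). It passed in DU vs. HU without HT3 (adjusted p = 0.0387, limma), without chip lot 3 (0.023) and with the 6 arrays compared alone (0.0478). Keap1, its inhibitor, had -0.01 (adjusted p = 0.943, limma) and 0.09 (adjusted p = 0.849).

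With scan day as a block, none of Gstp1, Ephx1 and Pgd passed in DU vs. HU (adjusted p = 0.4, 0.737 and 0.93, limma), nor did Gstp1 and Trib3 in DT vs. DU (adjusted p = 0.12 and 0.121). The log2 fold changes were then -1.01, 0.36 and -0.15 in the former and 0.74 and 0.70 in the latter. The 1 call of this list in DT vs. DU under that block was Gsta1, a glutathione transferase (-1.02). Without the block its adjusted p was 0.554 (limma). The blocked value rests on DU1 as the only DU array, where Gsta1 read 8.08, against 7.50 in DU2 and 7.19 in DU3. It read 7.04 in DT1 and 7.07 in DT2. Chip lot as a block ended the calls of Ephx1 (adjusted p = 0.0927, limma) and Pgd (0.168) but not of Gstp1. In chip lot 1, DU1 and DU2 minus HU3 was -1.06 for Gstp1, 0.61 for Ephx1 and -0.48 for Pgd. The 0.74 for Gstp1 and 0.70 for Trib3 under the scan day block are the differences of DT1 and DT2 from DU1 on scan day 1. Ephx1 did not pass without HU1, HU2 or DU1 (adjusted p from 0.0541 to 0.0774, limma), Pgd without HU2, HU3, HT2, DU2 or DU3 (from 0.0577 to 0.138) and Trib3 in DT vs. DU without DU1, DU3, DT2 or DT3 (from 0.0635 to 0.109). Pgd was also lost with median centring (adjusted p = 0.0541, limma), with the 6 arrays alone (0.0568) and without chip lot 3 (0.097), and Trib3 with the 6 arrays alone (0.057) and without chip lot 3 (0.066).

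**Figure D4:**
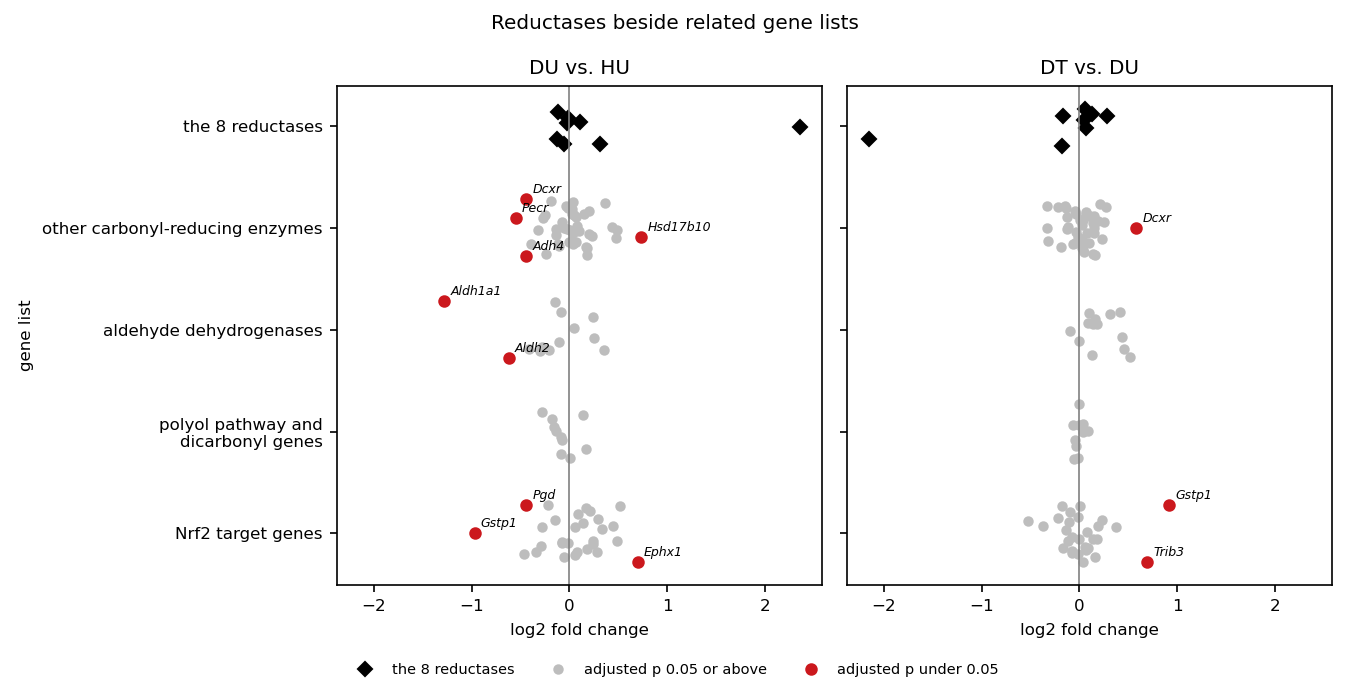
Log2 fold change (x axis) of the 8 reductases and of 4 related gene lists (rows), with DU vs. HU on the left and DT vs. DU on the right. Each point is 1 gene, red and named where the adjusted p was under 0.05, and vertical scatter within a row has no meaning; Cbr1 is the black diamond at 2.36 and at -2.15, beyond every point of the lists.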

How the data were processed

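Whole pancreas RNA was hybridized to 12 Rat GeneChip RAE230-A arrays. The authors deposited log2 expression values for 15923 probe sets, summarized and normalized together by robust multi-array average; 57 control probe sets were left out. Genes were named from the platform annotation. Array medians lay between 6.63 and 6.70 and pairwise correlations between 0.976 and 0.995. Precision is limited by how many arrays there were. Groups were taken from the sample titles; scan days and chip lots came from the array records. Group means were fitted by linear model to all 15866 probe sets with limma 3.58.1 in R 4.3.3, with Benjamini-Hochberg adjustment within each comparison and a threshold of 0.05. The members and lists were chosen with earlier results of these data known. Named were all members, up to 4 genes a list and direction with the smallest adjusted p under 0.05 in DU vs. HU, DT vs. DU and HT vs. HU, the 5 genes most correlated with Cbr1, and Nfe2l2, Keap1, Sord and Nqo1. Aldh3a2, Adhfe1, Gsta1 and the cell type markers were named outside this rule. Several probe sets of a gene were represented by the brightest. Upstream windows came from RefSeq on GRCr8. Alternatives were a second quantile normalization, median centring, leaving out the dimmest 25% of probe sets, the 6 arrays compared alone, limma with trend and robust settings, a B-statistic above 0 (prior proportion 0.01), the probe set with the smallest p, blocks for the scan day, for the chip lot or for the replicate number, and each array left out in turn. Leaving out chip lot 3 was added after the data had been seen. The script was tested on simulated data.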

Additional observations from a re-analysis of the deposited data

Results flagged for a closer look

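Of the genes of the 4 related lists, Gstp1 was the 1 for which the effect of tungstate differed between diabetic and healthy rats by a test of the difference itself. The share of all probe sets that passed this test is not given here, so nothing is read from the count. The effect in diabetic minus that in healthy rats was 1.03 ± 0.17 on the log2 scale (adjusted p = 0.0186, limma interaction term, Benjamini-Hochberg over all probe sets). Gstp1 had a log2 fold change of 0.92 in DT vs. DU and of -0.11 in HT vs. HU. With scan day as a block it did not pass in DT vs. DU, and the difference between the effects was not examined under the alternatives.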

How the results depend on the processing

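In HT vs. HU and DT vs. HT, 0 members passed under each alternative run. The member counts of the contrasts that chose the genes did not move either, which restates the choice. Of list counts, other carbonyl-reducing enzymes in DU vs. HU went from 4 to 0 with scan day as a block, 1 with chip lot as a block (Adhfe1, none of the 4), 7 without chip lot 3 and 2 to 5 with 1 array left out, and in DT vs. DU from 1 to 0 with the 6 arrays alone, 2 with the smallest-p probe set and 0 to 1 with 1 array left out. Aldehyde dehydrogenases in DU vs. HU went from 2 to 0 with scan day as a block, and in DT vs. DU from 0 to 1 without chip lot 3 and 0 to 1 with 1 array left out. Nrf2 target genes in DU vs. HU went from 3 to 0 with scan day, 1 with chip lot, 5 without chip lot 3 and 1 to 5 with 1 array left out, and in DT vs. DU from 2 to 1 with the 6 arrays alone or without chip lot 3 (Gstp1 in both), to 1 with scan day as a block (Gsta1, neither of the 2), and 1 to 2 with 1 array left out. The cause was not tested. Over all probe sets, scan day as a block left 34 of 507 calls by count in DU vs. HU, 3 against 209 in DT vs. HU and 25 against 148 in DT vs. HT. Chip lot as a block gave 236, 74 and 52. In DT vs. DU the count did not fall, with 200 under the scan day block and 203 under the chip lot block against 177. The 6 arrays alone gave 666 against 507 in DU vs. HU, but 88 against 177 in DT vs. DU, 45 in DT vs. HU and 32 in DT vs. HT. Without chip lot 3, DU vs. HU had 670, DT vs. DU 268, DT vs. HU 436 and DT vs. HT 247. Leaving out 1 array gave 214 to 654 calls in DU vs. HU, 104 to 224 in DT vs. DU, 73 to 306 in DT vs. HU, 51 to 286 in DT vs. HT and 0 to 2 (1 with all arrays) in HT vs. HU. Replicate numbers did not pair the arrays (same-numbered r from -0.29 to 0.31, 5 of 18 pairs over 0.1, and 6 of 12 arrays closest to their own number). The replicate block gave 565 calls in DU vs. HU and no change in member counts; Dcxr and Pgd no longer passed in DU vs. HU (adjusted p = 0.0631 and 0.0504, limma).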
